A study of Triticum polonicum with 10 samples.

Results

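The cadmium response of iron-fed roots was examined in dwarf Polish wheat (Triticum polonicum). This wheat is tetraploid and carries the subgenomes A and B. The comparison took 8 of the 10 libraries of the series, chosen by the code in each column name of the count table. With cadmium there were 4 libraries, each of roots given an iron salt and 80 µM CdCl2: FeCl3 at 50 µM, FeCl3 at 200 µM, Fe2(SO4)3 at 50 µM and Fe2(SO4)3 at 200 µM. Without cadmium there were 4 libraries, each of roots given the same salt at the same dose alone. Every cadmium library was therefore paired with the library of its own salt and dose, and the 4 pairs were the only replication of the cadmium effect. The other 2 libraries had no iron salt, with and without 80 µM CdCl2, and served for comparison. Below, without iron means only that no such salt was given. Treatment ran for 1 week on seedlings aged 4 weeks, and whole roots were sequenced. Doses are in µM of the salt, so the sulfate, which holds more iron per formula unit than the chloride, supplied more iron at the same dose.

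Cadmium is a toxic metal with no known use in a wheat root, and it enters root cells partly through transporters of iron, zinc and manganese. Plant cells bind it with thiol-rich molecules, namely phytochelatins, which are made from glutathione, and the small metallothionein proteins, and they store much of it in vacuoles. Grasses take up iron mainly by releasing phytosiderophores, chelators of the mugineic acid family, and by importing the iron complex. The deposited files do not pair gene IDs with names or functions and no annotation was used here, so which of these genes responded is not analysed here. Roots were sequenced whole, so fewer cells of a type and less RNA per cell cannot be told apart, and root markers could not be checked.

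The labels of the sulfate libraries were not uniform. Of the 4 sulfate libraries, 3 carry a treatment text that contradicts the code. The library coded B50CK is described as 200 µM Fe2(SO4)3 with cadmium, that coded B50Cd as 50 µM without cadmium, and that coded B200Cd as 50 µM with cadmium. Read by the text, B200Cd is thus paired with B50Cd, and B50CK with B200CK. Each of these text pairs joins libraries that have the same cadmium code. The code was followed throughout, and the main counts below are also given for the FeCl3 libraries alone, whose code and text match, and for the other reading. Each treatment had 1 library here, although 3 biological replicates are mentioned in the study's design. Since no treatment was repeated, the p-values rest on how far the pairs differ from each other. In edgeR each gene's spread is estimated in part from all genes. That spread may be technical, and it also takes in any difference of the cadmium effect between salts and doses. Total counts were 14272778 to 17408726 with cadmium and 13997374 to 18184796 with iron alone, and 73967 to 81068 genes had a count with cadmium, against 74459 to 79493 with iron alone. A count of 0 in 1 library allows a level of up to 0.165 to 0.214 CPM (counts per 1000000 counts of the library, from 3 counts). IDs of subgenome D, which the plant lacks, held 1.10% to 1.14% of counts with cadmium and 1.14% to 1.17% with iron alone, lower with cadmium in 4 of 4 pairs. An exact two-sided sign-flip test of 4 pairs has 16 sign assignments, 2 of which are the most extreme, so it cannot reach p = 0.05.

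Cadmium changed the levels of 1848 of 56571 genes tested (3.27%), of which 1396 rose (2.47%) and 452 fell (0.799%). The test was edgeR's quasi-likelihood test with the iron supply as a block, 3 residual degrees of freedom, and a Benjamini-Hochberg adjusted p under 0.05. The genes that rose had a median log2 fold of 2.24, with 5% under 1.21 and 5% above 5.08. Those that fell had a median of -2.12. Over all genes tested the median was -0.01. The direction was the same in 4 of 4 pairs for 1391 of the genes that rose and 451 of those that fell. The calls were made on these same pairs, so this agreement is no test of them. A gene's folds had a median SD over the 4 pairs of 0.57 and 0.56 in these sets, against 0.56 over all genes tested. Every gene called had an absolute log2 fold of at least 1.00. Of the genes that rose, 833 had a log2 fold of at least 2 and 166 of at least 4. Of those that fell, 254 and 49 did. On the log2(FPKM + 0.5) scale, which keeps the library totals, limma called 2081 genes, 1308 higher and 773 lower, so the share of higher genes was less than in edgeR. The median fold of all genes on that scale was -0.12. The TMM scaling factors that edgeR used were 0.869 to 1.01 with cadmium and 0.977 to 1.13 with iron alone, lower with cadmium in 4 of 4 pairs.

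**Figure D1:**
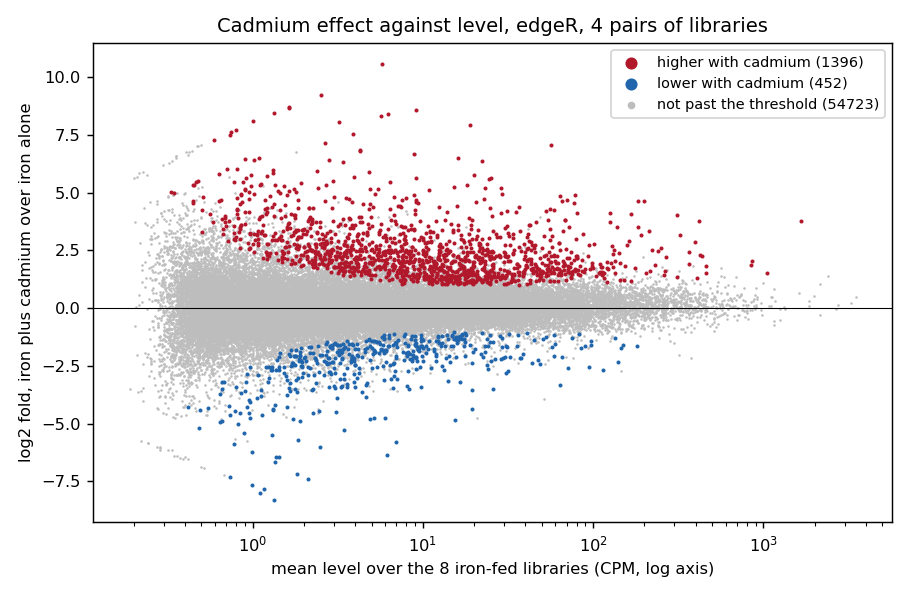
Each point is 1 of the 56571 genes tested, with its mean level over the 8 iron-fed libraries (CPM, log axis) and its log2 fold, iron plus cadmium over iron alone. The 1396 genes that rose lie above the 452 genes that fell, and both sets cover levels from under 1 CPM to over 100 CPM.

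Transcripts of the genes that rose took up a larger part of all counts under cadmium in every pair. These 1396 genes held 5.56%, 5.40%, 6.48% and 7.26% of counts with cadmium (50 and 200 µM FeCl3, then 50 and 200 µM Fe2(SO4)3), against 1.66%, 1.64%, 1.43% and 1.78% with iron alone. The 452 genes that fell held 0.233%, 0.271%, 0.184% and 0.181% with cadmium, against 1.00%, 0.955%, 0.859% and 0.629% with iron alone. The genes were chosen on these libraries, so the shares describe the size of the change and are no test of it. In the roots without iron salt, which did not enter the choice, the genes that rose held 5.18% with cadmium against 2.52% without it, and the genes that fell 0.325% against 0.727%.

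The rule for named genes took the largest fold among called genes averaging 5 CPM or more and with the same direction in 4 of 4 pairs. TraesCS7B01G026600, a gene of chromosome 7B, had 8.69 and 5.28 CPM with cadmium at 50 and 200 µM FeCl3, and 15.0 and 17.1 CPM at 50 and 200 µM Fe2(SO4)3. It had 0 counts in each of the 4 libraries with iron alone. All 4 cadmium libraries were thus above all 4 libraries with iron alone. The 728 counts with cadmium, set against a limit of 3 counts over the 4 libraries with iron alone, make its level at least 243-fold higher with cadmium (edgeR, adjusted p = 0.00578). Per length it reached 3.27 to 10.6 FPKM (counts scaled to a kilobase of the gene and to CPM) with cadmium. Without iron salt it was not silent in the absence of cadmium, at 3.52 CPM with cadmium and 0.733 CPM without it.

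TraesCS2D01G600900 carries a subgenome D ID. The plant has no such subgenome, so its counts may belong to a near-identical A or B copy. It had 9.04, 5.57, 17.6 and 17.7 CPM with cadmium, in the same order of supplies. With iron alone it had 2 counts at 50 µM FeCl3 (0.110 CPM) and 0 counts in the other 3 libraries. The groups did not overlap. The ratio over the groups, 790 counts against 2, was 396 (95% exact counting interval 109 to 3270; edgeR, adjusted p = 0.00352). Without iron salt it was at 3.67 CPM with cadmium and 1.10 CPM without it.

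On the lower side, TraesCS1B01G468400 of chromosome 1B was nearly silent with cadmium. It had 0.0701 and 0.230 CPM with cadmium at 50 and 200 µM FeCl3 (1 and 4 counts) and 0 counts at both sulfate doses. With iron alone it had 40.1 and 1.91 CPM at 50 and 200 µM FeCl3, and 3.07 and 4.02 CPM at 50 and 200 µM Fe2(SO4)3. The groups did not overlap, but the library at 50 µM FeCl3 stood far above the other 3 with iron alone. The log2 fold was -6.36 ± 0.94 (SE, 4 pairs; edgeR, adjusted p = 0.0159). TraesCS3B01G059900 of chromosome 3B had 0.0701, 0.517, 0 and 0.0669 CPM with cadmium. It had 10.4, 8.18, 36.2 and 0.295 CPM with iron alone. The library at 200 µM Fe2(SO4)3 without cadmium was as low as the cadmium libraries, so the groups overlapped although each pair had the lower value with cadmium. Its log2 fold was -5.80 ± 1.00 (SE, 4 pairs; edgeR, adjusted p = 0.0248). Intervals and limits from counts cover counting error alone.

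**Figure D2:**
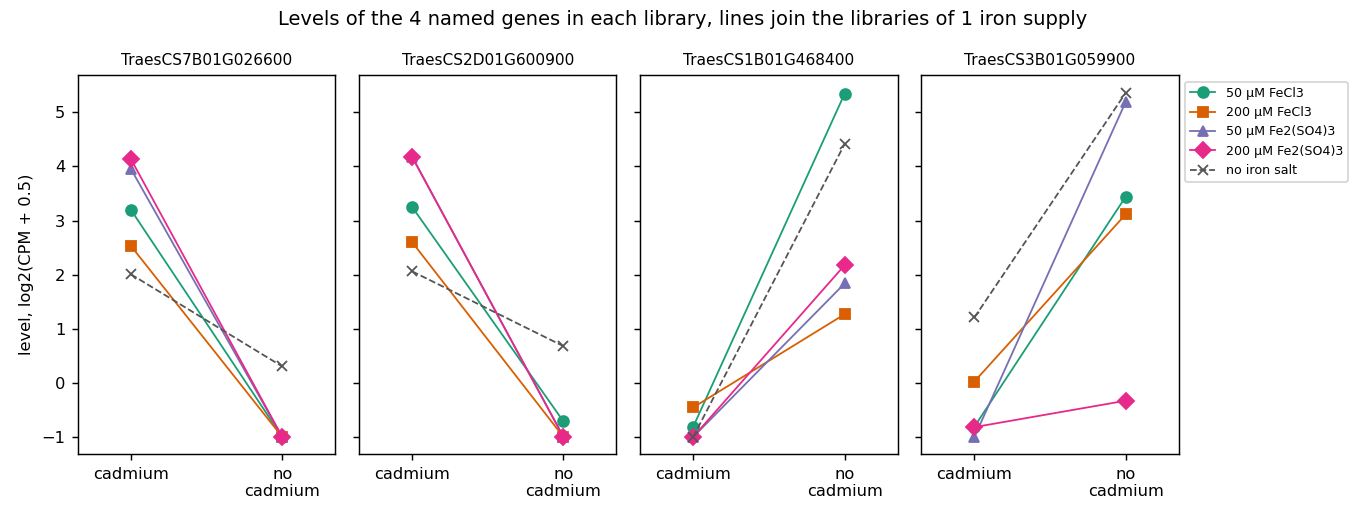
Level of each named gene in each library as log2(CPM + 0.5), with cadmium at the left and without cadmium at the right of each panel. Lines join the 2 libraries of 1 iron supply, solid for the 4 iron-fed pairs and dashed for the pair without iron salt. The 2 genes that rose are at or near the bottom of the axis without cadmium in every iron-fed pair, and the pair at 200 µM Fe2(SO4)3 is nearly flat for TraesCS3B01G059900.

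Genes that were close to silent with iron alone made up part of the response. Of the 1396 genes that rose, 256 (18.3%) were under 1 CPM in all 4 libraries with iron alone, against 8.74% of all genes tested, and 10 of these had 0 counts in all 4. Both the filter for testing and the choice of the genes used these libraries. A gene near 0 CPM in all libraries of a group could be tested only through the other group. The shares are therefore a description and no test. A smaller set of 11 genes was at least 5 CPM in every cadmium library and under 1 CPM in every library with iron alone. Of the genes that fell, 1 met the reverse cuts. How many of all genes tested met such cuts, or had 0 counts in all 4 libraries of a group, was not counted. The cuts themselves bound the levels in the iron-fed libraries. The median of these 11 genes was 6.95 to 17.7 CPM in the cadmium libraries and 0.0682 to 0.495 CPM in those with iron alone. In roots without iron salt their median was 8.85 CPM with cadmium and 1.69 CPM without it. In the library given neither iron salt nor cadmium, 7 of the 11 reached 1 CPM. Of the 452 genes that fell, 114 (25.2%) were under 1 CPM in all 4 cadmium libraries, against 12.9% of all genes tested, 5 of them at 0 counts in all 4. These sets were defined after the values had been seen.

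Abundant transcripts changed too. The most abundant of the genes that rose, a gene of chromosome 4B with a length of 228 bases, had 2790 and 2531 CPM with cadmium at 50 and 200 µM FeCl3, and 3240 and 3789 CPM at 50 and 200 µM Fe2(SO4)3. With iron alone it had 297 and 254 CPM at 50 and 200 µM FeCl3, and 204 and 225 CPM at 50 and 200 µM Fe2(SO4)3. No library with cadmium came near the range of those with iron alone, and the log2 fold was 3.79 ± 0.37 (SE, 4 pairs; edgeR, adjusted p = 0.0048). In roots without iron salt it had 1651 CPM with cadmium and 213 CPM without it. The most abundant of the genes that fell lies on chromosome 7A. It had 111, 142, 37.1 and 54.6 CPM with cadmium in the order of supplies used above, and 374, 322, 232 and 169 CPM with iron alone (log2 fold -1.66 ± 0.32; edgeR, adjusted p = 0.0347). Without iron salt the order was the opposite, 123 CPM with cadmium and 72.5 CPM without it. Both genes were picked for their level after the values had been seen.

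Single pairs of libraries varied in how many genes moved. Among 25280 genes whose mean reached 5 CPM, 1989 (7.87%) had at least a doubled level with cadmium at 50 µM FeCl3, 2768 (10.9%) at 200 µM FeCl3, 3017 (11.9%) at 50 µM Fe2(SO4)3 and 2303 (9.11%) at 200 µM Fe2(SO4)3. At least 2-fold lower were 2062 (8.16%), 2435 (9.63%), 3696 (14.6%) and 1532 (6.06%) in the same order. Higher by 2-fold or more in every one of the 4 pairs were 486 genes (1.92%), and 156 (0.617%) were lower by as much. With library sizes scaled by TMM in place of library totals, the numbers were 596 higher and 109 lower. By 4-fold or more the numbers were 128 (0.506%) and 16 (0.0633%). A further 86 genes were at least 2-fold apart in every pair but not in 1 direction, spread over 13 patterns. The largest of these patterns held 40 genes, which were lower with cadmium at 50 µM Fe2(SO4)3 and higher in the other 3 pairs. Read by the treatment text, 43 genes were 2-fold higher and 10 were 2-fold lower in every pair. With a median fold per pair of -0.22 to -0.01 over all genes tested, on library totals, 3346 genes (5.91%) had all 4 cadmium libraries above all 4 with iron alone, and 4596 (8.12%) had all 4 below.

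Folds of different pairs, which share no library, were related across the 25280 genes. Pearson's r was 0.547 between the FeCl3 doses and 0.362 between the Fe2(SO4)3 doses. Between salts it was 0.544 at 50 µM and 0.467 at 200 µM. For 50 µM FeCl3 with 200 µM Fe2(SO4)3 it was 0.464. The lowest value, 0.193, was that of 200 µM FeCl3 with 50 µM Fe2(SO4)3. Spearman's rho was lower in each case. It was 0.497 between the FeCl3 doses, 0.23 between the Fe2(SO4)3 doses and 0.137 at its lowest, for the same pairs as the lowest r. With the sulfate libraries read by the treatment text, the 4 values of r between a chloride and a sulfate pair were 0.039, -0.259, 0.258 and 0.062. These are descriptions across genes, which are not independent replicates, and the libraries of a pair differ in depth and composition.

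The genes called in the FeCl3 pairs alone were examined in the sulfate pairs, which had no part in those calls. In the FeCl3 pairs edgeR called 749 of 51872 genes (1.44%), of which 623 rose and 126 fell. This fit had 1 residual degree of freedom, so its calls lean on spread estimated from all genes. Of the 623 that rose, 501 (80.4%) were higher with cadmium in both sulfate pairs, against 25.3% of all genes tested, and 369 (59.2%) were at least 2-fold higher in both, against 3.97%. Their median log2 fold was 1.79 at 50 µM and 1.93 at 200 µM Fe2(SO4)3. Of the 126 that fell, 98 (77.8%) were lower in both sulfate pairs, against 31.5% of all genes tested, with medians of -2.03 and -1.57. When the sulfate libraries were paired by their treatment text, 198 of the 623 (31.8%) were higher in both pairs, against 32.1% of all genes, and 30 of the 126 (23.8%) were lower in both, against 25.2%. In the sulfate pairs alone, also with 1 residual degree of freedom, edgeR called 144 of 51717 genes (0.278%). Of the 128 that rose, 124 (96.9%) were higher with cadmium in both FeCl3 pairs, against 23.6% of all genes, and 12 of the 16 that fell were lower in both, against 42.5% of all genes.

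**Figure D3:**
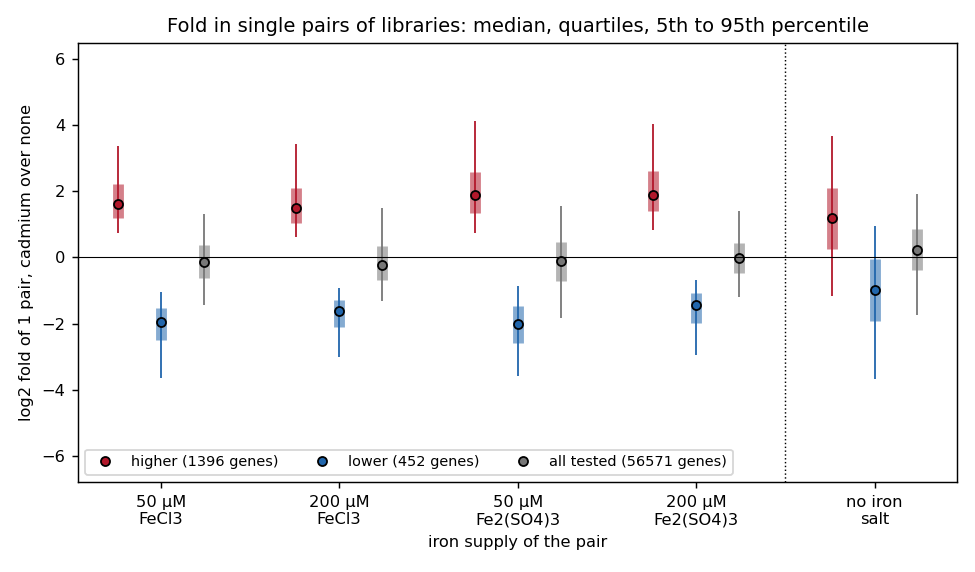
Log2 fold of single pairs, cadmium over none, for the 1396 genes that rose, the 452 that fell and all 56571 genes tested. Points are medians, thick bars the interquartile range and thin lines the 5th to 95th percentile. The called genes were chosen on the 4 iron-fed pairs at the left of the dotted line, where the medians of those that rose are 1.51 to 1.89, and those of the genes that fell -1.45 or lower. In the pair without iron salt the medians are 1.20 and -0.97.

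The pair without iron salt had no part in the calls either. Its folds had a Pearson's r of 0.308 and 0.135 with those at 50 and 200 µM FeCl3, and of 0.436 and 0.014 with those at 50 and 200 µM Fe2(SO4)3, over the same 25280 genes. Spearman's rho was 0.268, 0.042, 0.371 and -0.105 in the same order. Of the 1396 genes that rose in iron-fed roots, 1128 (80.8%) were higher with cadmium in that pair, against 60.1% of all genes tested, and 785 (56.2%) were at least 2-fold higher, against 20.4%. The median log2 fold was 1.20 for these genes and 0.23 for all genes tested. Of the 452 that fell, 345 (76.3%) were lower, against 39.5% of all genes, with a median of -0.97, and 225 (49.8%) were at least 2-fold lower, against 11.7%. The opposite direction, by at least 2-fold, was seen for 90 of the genes that rose (6.45%, against 11.7% of all genes) and 21 of those that fell (4.65%, against 20.4%).

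Whether the cadmium effect itself differed between iron-fed roots and roots without iron salt was tested as an interaction over all 10 libraries. With edgeR, 0 of 63776 genes passed (smallest adjusted p = 0.129), 8550 had an unadjusted p under 0.05, DESeq2 called 1784 and limma on FPKM 0. Without the pair at 50 µM Fe2(SO4)3, edgeR called 695, among them the 4 genes named here (adjusted p = 0.0242 to 0.0253). If no gene differed, about 0.05 of the genes tested would have an unadjusted p under 0.05. The 8550 genes exceed that share, and the cause was not tested. The median difference over all genes was -0.11 in edgeR and -0.32 in limma. The 1 pair without iron was assumed to vary like the iron-fed pairs. The 4 genes were named by the smallest p of this interaction. Their passing without the pair at 50 µM Fe2(SO4)3 is therefore no support of its own. All 4 had a reversed or far larger fold without iron. TraesCS4A01G359900 had 22.1, 18.9, 24.4 and 36.1 CPM with cadmium and iron (50 and 200 µM FeCl3, 50 and 200 µM Fe2(SO4)3), against 4.73, 6.48, 7.79 and 12.5 CPM with iron alone. Without iron it had 10.1 CPM with cadmium and 79.9 CPM without it. Its cadmium log2 fold was 1.87 ± 0.23 in iron-fed roots (adjusted p = 0.00944), and the difference of the folds was 5.07 ± 0.59 (edgeR, adjusted p = 0.129).

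TraesCS3A01G509800 went the other way. It had 6.10, 14.4, 9.86 and 5.89 CPM with cadmium and iron, against 41.4, 57.9, 42.8 and 34.7 CPM with iron alone, so the groups did not overlap. Without iron it had 127.6 CPM with cadmium and 14.0 CPM without it. The iron-fed log2 fold was -2.22 ± 0.25 (adjusted p = 0.00685) and the difference -5.18 ± 0.61 (edgeR, adjusted p = 0.129). TraesCS5A01G404000 had 51.4, 41.6, 32.2 and 37.7 CPM with cadmium and iron, against 17.2, 17.9, 12.2 and 25.5 CPM with iron alone, and rose in iron-fed roots by a log2 fold of 1.33 ± 0.26 (adjusted p = 0.0386). Without iron it had 66.5 CPM with cadmium and 1 count (0.0733 CPM) without it. TraesCS5A01G534000 did not pass in iron-fed roots (log2 fold 0.84 ± 0.26, adjusted p = 0.136), and without iron it had 2.02 CPM with cadmium and 54.1 CPM without it. In each of these genes the library given neither iron salt nor cadmium lay outside the range of the 4 libraries with iron alone.

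The salts were compared for their cadmium effect, sulfate minus chloride, as an interaction with 2 residual degrees of freedom. With edgeR, 0 of 56571 genes passed (smallest adjusted p = 0.962), 2767 had an unadjusted p under 0.05, DESeq2 called 81 and limma on FPKM 0. The unadjusted count is no more than the 0.05 of genes that would fall there if no gene differed. Without the pair at 200 µM Fe2(SO4)3, edgeR called 187, and of the 4 genes named here TraesCS5B01G224100 passed (adjusted p = 0.00576). That fit held 1 sulfate pair and had 1 residual degree of freedom, so its calls lean on spread estimated from all genes. The 4 genes were also picked by the smallest p of the salt interaction in these data. TraesCS2B01G018100 had 15.7 and 52.7 CPM with cadmium at 50 and 200 µM Fe2(SO4)3, against 1.36 and 3.78 CPM with the sulfate alone. At 50 and 200 µM FeCl3 it had 7.99 and 8.56 CPM with cadmium, against 6.05 and 13.0 CPM with the chloride alone. The difference of the log2 folds was 3.65 ± 0.53 (SE; edgeR, adjusted p = 0.962). TraesCS5B01G224100 had 2.64 and 4.35 CPM with cadmium at the sulfate doses, against 52.3 and 22.9 CPM with the sulfate alone. At the chloride doses it had 56.3 and 19.5 CPM with cadmium, against 19.6 and 6.68 CPM with the chloride alone. The folds thus pointed opposite ways in the salts, with a difference of -4.99 ± 0.67 (edgeR, adjusted p = 0.962). For TraesCS4A01G316600 the difference was 3.46 ± 0.53 and for TraesCS5B01G544800 it was -4.69 ± 0.58. Of the 1396 genes that rose, the largest of the 4 folds was that at 50 µM Fe2(SO4)3 in 494, at 200 µM Fe2(SO4)3 in 461, at 50 µM FeCl3 in 224 and at 200 µM FeCl3 in 217. Of the 452 that fell, it was in the same order in 173, 54, 158 and 67. The pairs also differed over genes at large. Among genes averaging 5 CPM or more, the SD of the log2 folds was 1.08, 0.82, 0.81 and 0.91 in that order. The median log2 fold over all genes tested was -0.11, -0.01, -0.13 and -0.22. The splits themselves were not tested.

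The doses were compared in the same way, 200 minus 50 µM. With edgeR, 0 of 56571 genes passed (smallest adjusted p = 0.407), 4457 had an unadjusted p under 0.05, DESeq2 called 114 and limma on FPKM 0. The unadjusted count is above the 0.05 of genes that would fall there if no gene differed, and the cause was not tested. TraesCS3A01G260200 had 118 and 4.68 CPM with cadmium at 200 µM FeCl3 and Fe2(SO4)3, against 0.955 CPM and 0 counts with iron alone. At 50 µM FeCl3 and Fe2(SO4)3 it had 4.90 and 1.12 CPM with cadmium, against 5.83 and 1.79 CPM with iron alone. The fitted difference was 7.57 ± 0.62 (SE; edgeR, adjusted p = 0.407), and 1 library, that at 200 µM FeCl3 with cadmium, was far above the rest. TraesCS5A01G552000 had 15.8 and 35.9 CPM with cadmium at 200 µM, against 0.409 and 0.413 CPM with iron alone. At 50 µM it had 5.25 and 20.6 CPM with cadmium, against 4.29 and 10.8 CPM with iron alone (difference 5.20 ± 0.54, adjusted p = 0.625). TraesCS4B01G276100 (-3.22 ± 0.46) and TraesCS7B01G232400LC (-2.64 ± 0.42) were higher with cadmium at both salts at 50 µM and lower at both at 200 µM.

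The called genes came mostly from ordinary A and B genes. Of 19587 subgenome A genes without the suffix LC, 563 rose (2.87%) and 189 fell (0.965%). Of 19740 such B genes, 642 rose (3.25%) and 203 fell (1.03%). Lower shares were called among 9565 LC IDs, with 111 higher (1.16%) and 23 lower (0.240%), among 2782 subgenome D IDs, with 31 higher (1.11%) and 10 lower (0.359%), and among 4486 IDs outside the TraesCS naming scheme, with 37 higher (0.825%) and 19 lower (0.424%). These 3 groups also had lower levels, with medians of 1.62, 1.16 and 2.39 CPM against 6.02 and 5.94 CPM for A and B. Unplaced IDs did not follow that order: with a median of 2.78 CPM, 12 of 411 rose (2.92%) and 8 fell (1.95%). The share called also differed by level. Of genes under 1 CPM, 0.627% rose and 0.277% fell. The share that rose was highest at 20 to 100 CPM, at 4.26%, and the share that fell at 5 to 20 CPM, at 1.09%. The part of level in the differences between ID groups was not tested.

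**Figure D4:**
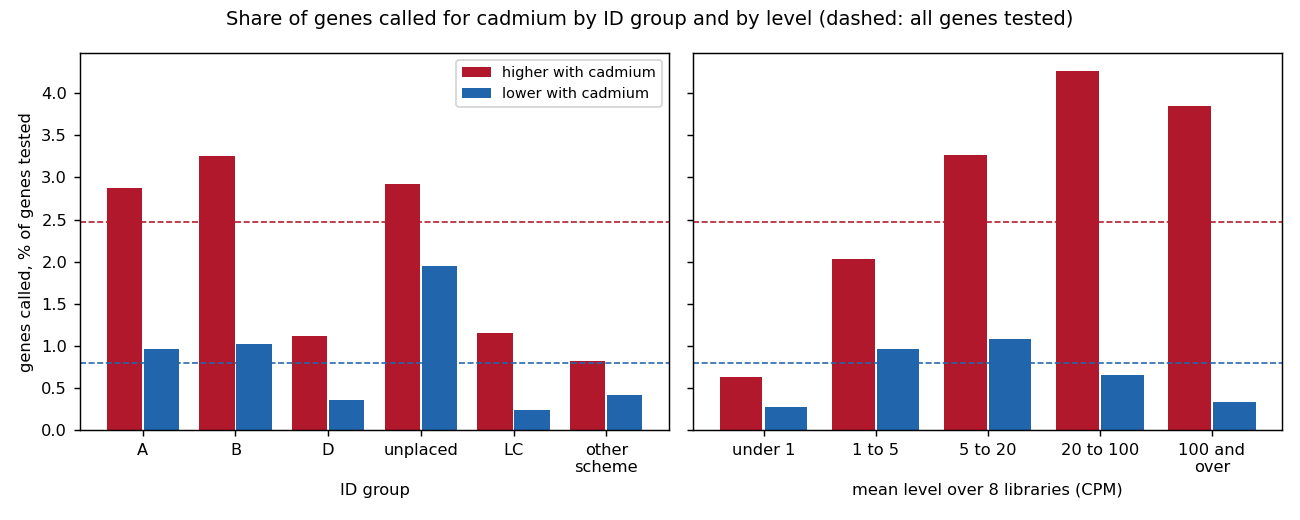
Genes called for cadmium in percent of genes tested, by ID group (left) and by mean level over the 8 iron-fed libraries in CPM (right). Dashed lines are the shares of all genes tested, 2.47% higher and 0.799% lower. A and B genes lie above both lines, and D, LC and other-scheme IDs below both.

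Among the 14 chromosomes of the A and B subgenomes the share that rose was 2.22% on 4A and 3.59% on 3B at its extremes, and the share that fell was 0.556% on 5A and 1.05% on 3B. These chromosome shares include LC IDs. Gene numbers run in order along a chromosome in this naming scheme, and the stretches below leave LC IDs out. By 5 successive stretches of that order, 3.19%, 2.68%, 2.68%, 3.37% and 3.64% of A and B genes rose, and 1.30%, 0.712%, 0.834%, 1.00% and 1.32% fell, so both shares were lowest toward the middle. These shares were not tested.

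Genes next to a called gene were called in the same direction more frequently than tested genes as a whole. Of 752 genes that rose and whose next ID was tested, the next ID also rose in 85 (11.3%), against 2.97% over all 25191 such tested neighbours. Of 240 genes that fell, the next ID fell in 13 (5.42%), against 0.94%. Runs of consecutive IDs numbered 76 among the genes that rose, with 161 genes, and 13 among those that fell, with 26 genes. The longest runs held 4 genes that rose, on chromosome 2A (log2 folds 3.39 to 5.24) and on chromosome 6B (1.59 to 2.85). Neighbouring genes can be copies of each other that share reads, and the sources used here do not say how the authors treated reads matching several genes, so the count of such neighbours is uncertain.

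Calls depended on which pairs entered the test. Without the pair at 50 µM FeCl3, edgeR called 26 genes, all of them higher and all among the 1848, and without the pair at 200 µM Fe2(SO4)3 it called 197, of which 189 were among the 1848. Without the pair at 200 µM FeCl3 it called 1090, with 924 shared, and without that at 50 µM Fe2(SO4)3 1664, with 1235 shared. Of the 749 genes called in the FeCl3 pairs alone, 511 were among the 1848. Read by the treatment text, the sulfate libraries left 0 genes past the threshold with edgeR (4556 at an unadjusted p under 0.05, smallest adjusted p = 0.15). In none of these fits was a gene called in the direction opposite to its call in the 4 pairs. Each of these fits reuses pairs that made the calls, and the text reading called 0 genes, so this is no independent check. Without the pair at 50 µM FeCl3, each of the 4 genes named for cadmium missed the threshold in edgeR. TraesCS7B01G026600 had a fitted log2 fold of 10.66 there and TraesCS2D01G600900 of 10.78 (adjusted p = 0.053 each), TraesCS1B01G468400 of -5.02 (adjusted p = 0.143) and TraesCS3B01G059900 of -5.47 (adjusted p = 0.171). Both named genes that rose had 0 counts in every remaining library with iron alone, so the size of their folds was set by the model. Without the pair at 200 µM Fe2(SO4)3 both named genes that fell missed the threshold, TraesCS1B01G468400 at -6.10 (adjusted p = 0.0851) and TraesCS3B01G059900 at -6.09 (adjusted p = 0.0772). TraesCS1B01G468400 also missed it in the FeCl3 pairs alone (adjusted p = 0.0501) and in the Fe2(SO4)3 pairs alone (adjusted p = 0.0608). In limma on FPKM, TraesCS3B01G059900 missed it with either pseudocount (adjusted p = 0.052 and 0.0529). That gene had no fitted value with a filter of 1 CPM in 4 libraries, without the supply block or in the Fe2(SO4)3 pairs alone. By the treatment text all 4 named genes missed the threshold, with adjusted p-values of 0.626 to 0.887 in edgeR. These genes were picked for large folds by the code, and the text pairs libraries of the same cadmium code. Their loss there is therefore no separate test of them.

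**Figure D5:**
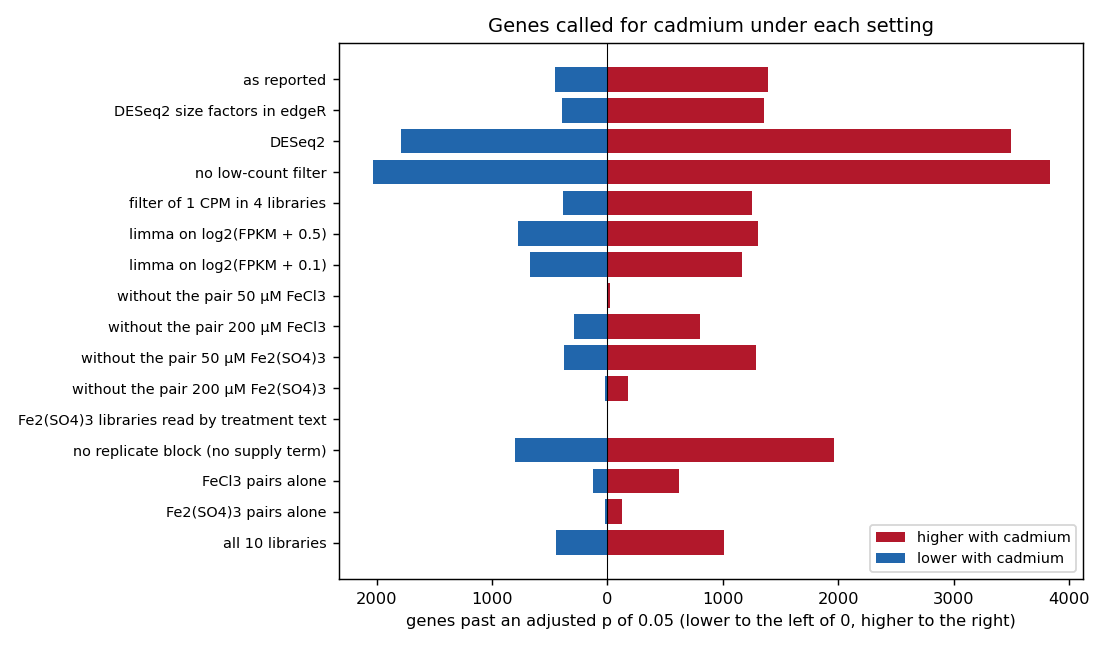
Genes past an adjusted p of 0.05 for cadmium under each setting, higher to the right of 0 and lower to the left. The bars run up to 3832 higher genes without a low-count filter, and 0 genes are called when the sulfate libraries are read by the treatment text.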

How the data were processed

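Root RNA was extracted with Trizol and prepared with an Illumina TruSeq kit, per the labels' protocols. The submitters' processing notes name the aligners Bowtie2 2.0.6 and TopHat2 2.0.12. Not given in the sources used here are the counter, the genome build, the strand setting and the handling of multiply matching reads. The authors deposited whole-number counts for 274924 gene IDs, and FPKM values that equal those counts divided by gene length and by library total, as recomputing them showed.

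Counts of the 8 iron-fed libraries were tested with edgeR 4.0.16 under R 4.3.3 (TMM normalisation, filterByExpr with the design, estimateDisp, glmQLFit) with the supply (salt and dose, by the column code) as a block, and with Benjamini-Hochberg adjustment over all genes tested. Interactions added a product term to that fit. The pairing comes from the salts and doses in the codes, as the labels give no replicate numbers. Standard errors were obtained as log2 fold over root F. Alternatives were DESeq2 1.42.0, limma 3.58.1 on log2(FPKM + 0.5) or log2(FPKM + 0.1), other filters and scalings, each pair left out, and the treatment text. Folds of single pairs used log2(CPM + 0.5). Scripts were tested on simulated data.

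Named genes were, per comparison and direction, the 2 IDs of largest fold among called genes averaging 5 CPM or more and 1 direction in all pairs (for interactions, no overlap between the levels compared, and the smallest p where no gene passed). The comparison, its rule and its tests were chosen with earlier results of these data known. Gene lists by function and tissue markers were not used because IDs carry no names.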

Additional observations from a re-analysis of the deposited data

Results flagged for a closer look

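TraesCS2D01G600900 had 0.11 CPM (2 counts) in the library with 50 µM FeCl3 alone and 0 counts in the other 3 libraries with iron alone, so that library was singled out by its gap to the others. A value of 2 counts is below the 3 counts that a count of 0 allows, so the libraries cannot be told apart in it. It was the only such library among 52 groups of 4 libraries examined (library measures and named genes), where chance gives about 1 in 20.

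For 8 named genes the cadmium fold pointed one way in every pair of one level and the other way in every pair of the other, and none of these differences passed the interaction test in edgeR. Between salts (sulfate minus chloride, adjusted p = 0.962 each) these were TraesCS4A01G316600 with a difference of log2 folds of 3.46, TraesCS5B01G544800 with -4.69 and TraesCS5B01G224100 with -4.99. Between doses (200 minus 50 µM) they were TraesCS3A01G260200 with 7.57 (adjusted p = 0.407), and TraesCS4B01G276100 with -3.22 and TraesCS7B01G232400LC with -2.64 (adjusted p = 0.625 each). Between iron-fed roots and the 1 pair without iron salt they were TraesCS4A01G359900 with 5.07 and TraesCS3A01G509800 with -5.18 (adjusted p = 0.129 each). The genes were picked for such patterns, so the directions carry no support of their own.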

How the results depend on the processing

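The number of genes called for cadmium, 1848, became 5282 with DESeq2, 5862 without a low-count filter, 749 with the FeCl3 pairs alone, 144 with the Fe2(SO4)3 pairs alone, 0 with the sulfate libraries read by their treatment text, and 26 to 1664 with 1 pair left out. It was 2758 (1962 higher, 796 lower) without the supply block and 1453 with all 10 libraries. The causes were not tested. For the salts, where 0 genes passed, the number was 81 with DESeq2, 589 without a filter, 2 by the treatment text, 11 with both interactions in 1 fit, and 0 to 187 with 1 pair left out. For the doses it was 114, 1029, 0, 13 and 0 in the same order. For iron-fed roots against those without iron salt it was 1784 with DESeq2, 2748 without a filter, and 0 to 695 with 1 iron-fed pair left out. Genes 2-fold apart in every pair numbered 764 higher and 347 lower at a mean of 1 CPM, 128 and 16 at 4-fold, 43 and 10 by the treatment text, and 592 to 690 and 197 to 364 in 3 of the 4 pairs. Of 197 values of named genes under alternatives, 14 lost the threshold, 32 gained it and 0 reversed. The alternatives reuse the same libraries, so they are no independent check. Leaving out 1 library equals leaving out its pair. Gene lists could not be matched. Counts of 3 set the lowest level resolved, 0.165 to 0.214 CPM per library.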
